A study of Arabidopsis thaliana with 18 samples.

Results

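The A-type ARR genes of Arabidopsis thaliana encode small response regulators of the cytokinin pathway. They were taken by locus: ARR3 (AT1G59940), ARR4 (AT1G10470), ARR5 (AT3G48100), ARR6 (AT5G62920), ARR7 (AT1G19050), ARR8 (AT2G41310), ARR9 (AT3G57040), ARR15 (AT1G74890), ARR16 (AT2G40670) and ARR17 (AT3G56380). Of these 10 loci, 9 were among the 22093 loci with counts, and 6 were among the 16354 that passed the expression filter and were tested. Levels of ARR17 were not analysed here, and only its gene sequence was used.

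Cytokinin is sensed by histidine kinase receptors, and phosphoryl groups pass through phosphotransfer proteins to the response regulators in the nucleus. B-type ARRs are DNA-binding proteins that turn on cytokinin targets, among them the A-type genes. A-type ARRs lack that DNA-binding domain, take up phosphoryl groups and damp the pathway, so that several are used as early markers of cytokinin response. In the root tip, cytokinin is known for limiting the size of the meristem and acting against auxin where cells leave it.

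Gene counts came from root tips of 7 day old seedlings in 7 groups, 18 libraries in all. Intact tips with mock treatment (mock uncut, 3 libraries) carried no time in the labels. Tips with the meristem cut off 120 µm above the quiescent centre and mock treatment were taken 3 h (3 libraries) and 6 h (2 libraries) later. Intact tips given 100 µM L-Kyn (L-kynurenine, which blocks the enzymes that start auxin synthesis from tryptophan) were taken at 3 h (3 libraries) and 6 h (2 libraries), and cut tips given L-Kyn at 3 h (2 libraries) and 6 h (3 libraries). No genotype or ecotype is named in the labels, and the order of cut and L-Kyn is not stated there. For 1 library, L-Kyn uncut 6 h replicate 1, the title says uncut and the source field says cut. The title was followed.

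Levels are given in CPM (counts-per-million of the reads on genes, scaled with TMM factors). Each library held between 1280947 and 4839810 such reads, and a floor of 3 counts stood for 0.62 to 2.29 CPM. Libraries also fell into 2 sets by their place in the table. The labels name no batch, and the sets were inferred from that order and from earlier results of these data. Every 6 h library was in set A, together with replicates 1 and 2 of mock uncut. Set B was made up of the 3 h libraries and the third mock uncut replicate. The sets carried different amounts of green tissue transcripts: 9 marker genes of photosynthesis summed to 70.5 to 520 CPM in set A and to 1.89 to 15.5 CPM in set B. The 5 root cap markers summed to 46.6 to 270 CPM in mock uncut libraries and to 3.02 to 11 CPM in mock cut libraries at 3 h, and the 4 mitotic markers to 57.9 to 127 CPM and 5.52 to 13.3 CPM. Of the pair of L-Kyn cut libraries at 3 h, replicate 2 held 165 CPM of root cap markers and replicate 1 held 4.63 CPM. Replicate 2 had a mean Spearman correlation of 0.961 with L-Kyn uncut 3 h libraries, 0.879 with replicate 1 and 0.846 with mock cut 3 h libraries. By its label it is kept as a cut tip in the group means, the overlap counts and the fit of all libraries. Whether the tips of replicate 2 were cut was not tested. A set-matched fit, with a term for the set and without that library, is given beside the fit of all 18 libraries where it turns a direction or moves a value that is named as higher or lower. Only mock uncut has libraries in both sets, so the set term rests on its replicate 3 against its replicates 1 and 2. In that fit a 3 h group is set against 1 intact mock library. There 1 library also stands for L-Kyn cut tips at 3 h, on the assumption that it varies like the rest.

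Promoters are shown first for the pair of members with the highest level in these tips, ARR8 and ARR4, and for the pair with the lowest level of those with counts, ARR7 and ARR16. The choice was made after the levels were seen. Each stretch is the 250 bases before the annotated gene start, 5′ to 3′ on the gene's strand, from RefSeq, build TAIR10.1. Capitals mark AGATT and AGATC, the core letters bound by B-type ARRs, on either strand.
ARR8, chr2:17221590-17221839, plus strand: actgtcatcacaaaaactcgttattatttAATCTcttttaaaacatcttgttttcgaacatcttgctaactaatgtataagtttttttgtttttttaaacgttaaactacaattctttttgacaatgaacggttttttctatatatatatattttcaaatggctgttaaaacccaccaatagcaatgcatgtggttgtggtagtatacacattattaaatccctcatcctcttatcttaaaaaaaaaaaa
ARR4, chr1:3444361-3444610, minus strand: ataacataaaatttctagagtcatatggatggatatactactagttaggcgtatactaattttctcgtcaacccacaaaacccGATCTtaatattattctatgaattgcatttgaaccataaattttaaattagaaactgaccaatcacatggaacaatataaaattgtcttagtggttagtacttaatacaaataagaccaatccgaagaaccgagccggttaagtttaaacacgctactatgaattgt
ARR7, chr1:6579315-6579564, minus strand: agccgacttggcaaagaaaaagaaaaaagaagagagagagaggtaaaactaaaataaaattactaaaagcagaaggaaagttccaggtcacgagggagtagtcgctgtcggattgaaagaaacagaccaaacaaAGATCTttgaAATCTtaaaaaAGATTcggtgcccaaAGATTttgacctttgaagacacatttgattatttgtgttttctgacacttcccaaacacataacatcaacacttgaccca
ARR16, chr2:16969423-16969672, plus strand: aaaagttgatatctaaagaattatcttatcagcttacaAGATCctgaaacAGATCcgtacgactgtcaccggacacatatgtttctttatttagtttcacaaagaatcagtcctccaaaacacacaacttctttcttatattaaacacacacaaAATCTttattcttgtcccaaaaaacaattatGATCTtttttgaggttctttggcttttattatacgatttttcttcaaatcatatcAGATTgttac

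All 10 members had at least 1 AGATT or AGATC in this window, as did 73.2% of the 27443 protein-coding promoters of the same length. ARR7 and ARR16 held 5 matches each, with a pair of overlapping ones in ARR7 where the same letters read on both strands, while ARR8 and ARR4 held 1 each. AGATT alone was in 7 members and 63.7% of promoters, and AGATC alone in 5 members and 26.6%. A longer motif, AAGATNTT on either strand, was in 5 members (ARR6, ARR7, ARR8, ARR9 and ARR16) and in 12.0% of promoters. Its N lets it match without either core, as in ARR8, where both of its matches hold neither AGATT nor AGATC. The members with most core matches had few reads, but ARR15, also low, held 1. A match is a run of letters and was not tested as a binding site.

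The members form pairs by sequence. Coding identity was highest between ARR16 and ARR17 (84.2%), followed by ARR3 and ARR4 (83.2%), ARR5 and ARR6 (81.4%), ARR8 and ARR9 (81.3%) and ARR7 and ARR15 (79%). Because the kit reads transcript ends, the last 250 bases of each annotated transcript were searched against the genome. None of the 10 had another match of at least 95% identity over 50 bases, and the longest other match, for ARR8, was 191 bases at 84.3% identity. ARR6 overlaps AT5G62910 on the other strand, which had 21 to 118 counts per library against 2 to 25 for ARR6. Whether counting used strand is not given in the sources used here, so these pairs of values may share reads. ARR8 and ARR9 overlap AT2G09250 and AT3G08825 on the other strand, which were not analysed here.

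ARR8 had the highest level of the family, with a mean of 78.9 CPM over the 18 libraries (37.2 to 128 CPM). Next came ARR4 at 37.5 CPM (24.1 to 53.4), a regulator that also binds the red light receptor phytochrome B, and ARR9 at 19.9 CPM (9.86 to 36.1). ARR5, whose promoter is a common cytokinin reporter, averaged 8.46 CPM (1.72 to 25.8). ARR6 averaged 3.31 CPM (0.959 to 6.75) and ARR3 2.88 CPM (0.575 to 8.75). ARR15 averaged 1.12 CPM, ARR16 0.574 CPM and ARR7 0.149 CPM. The first 3 genes were thus read many times in every library and the last 3 hardly at all.

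The order was the same per kilobase of coding length, from 116 CPM per kb for ARR8, 48.1 for ARR4, 28.2 for ARR9 and 15.2 for ARR5 down to 5.9 for ARR6, 2.96 for ARR3, 1.8 for ARR15, 1.15 for ARR16 and 0.24 for ARR7. For a 3′ kit, length need not set the number of reads, so both scales are shown. On the scale per kb, ARR8 lay above ARR4 in 17 of 18 libraries, the exception being L-Kyn uncut 3 h replicate 2, and ARR4 lay above ARR9 in 18 of 18. ARR9 lay above ARR5 in 15 libraries and ARR5 above ARR6 in 16. ARR6 was above ARR3 in 14 libraries, ARR3 above ARR15 in 11, ARR15 above ARR16 in 11 and ARR16 above ARR7 in 10. The order of the lower 5 members therefore did not hold across single libraries.

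**Figure D1:**
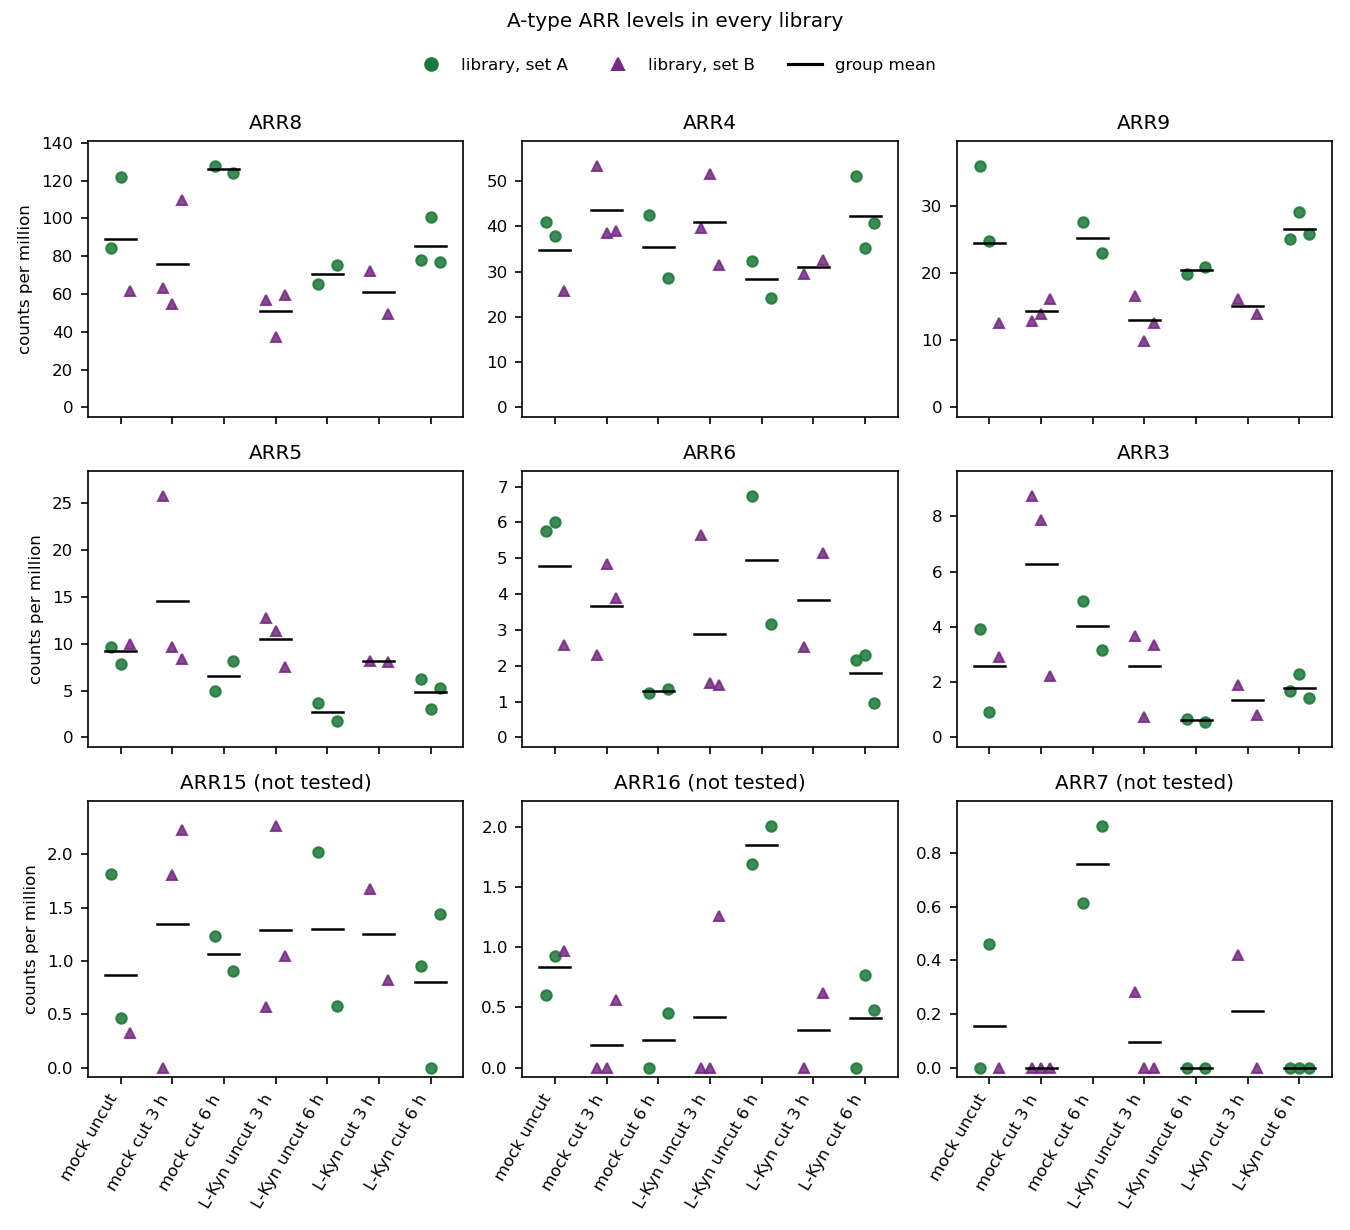
Level in CPM (vertical axis, linear, own scale per gene) of 9 A-type ARR genes in each of 18 libraries, by group. Points are libraries (circles set A, triangles set B) and bars are group means. ARR9 separates the sets, at 19.9 to 36.1 CPM in set A and 9.86 to 16.7 CPM in set B, and the bottom row shows genes at or near 0.

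ARR7 and ARR15 are known in Arabidopsis as targets of auxin in the embryonic root and of WUSCHEL in the shoot. ARR7 had 7 counts in all, at most 2 in a library and 0 in 13 of 18. Its counts were 1 in mock uncut, 3 in mock cut 6 h, 1 in L-Kyn uncut 3 h, 2 in L-Kyn cut 3 h, and 0 in the other 3 groups. ARR15 had 56 counts, at most 8 in a library and 0 in 2 libraries, with group means of 0.799 to 1.35 CPM. ARR16, whose promoter is active in the root stele in Arabidopsis, had 32 counts and was at 0 in 7 libraries. Its highest group was L-Kyn uncut 6 h, at 1.69 and 2.01 CPM (5 and 7 counts), against 0.606 to 0.967 CPM in mock uncut (2 to 3 counts). These 3 genes did not pass the expression filter. A difference in them was not detectable at this depth: without the filter, edgeR gave no adjusted p under 0.05 for any of them in 11 comparisons, and the smallest was 0.473.

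Summed over the 9 members with counts, the family made up 167 ± 44.8 CPM in mock uncut tips (SD, n = 3), 160 ± 25.9 CPM in mock cut tips at 3 h (n = 3) and 201 ± 14.6 CPM at 6 h (n = 2). With L-Kyn, the sum was 123 ± 11.5 CPM in uncut tips at 3 h (n = 3), 131 ± 2.49 CPM at 6 h (n = 2), 122 ± 15 CPM in cut tips at 3 h (n = 2) and 164 ± 10.3 CPM at 6 h (n = 3). The mock uncut libraries alone spanned 117 to 202 CPM, and all 4 L-Kyn group ranges reached into that span. ARR8 supplied 32.5% to 65.2% of the sum.

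**Figure D2:**
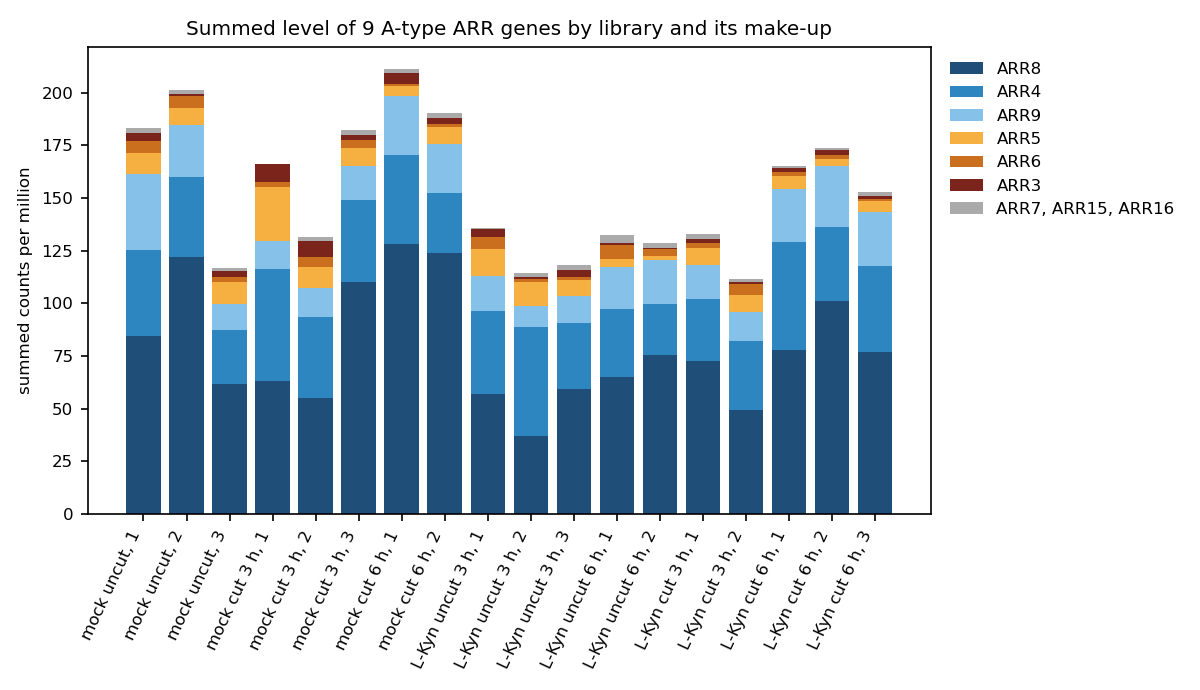
Summed level in CPM (vertical axis, from 0) of 9 A-type ARR genes in each library, named by group and replicate, stacked by gene. ARR8, ARR4 and ARR9 make up most of each bar, and the mock uncut bars span 117 to 202 CPM.

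Between groups, the members were compared in 9 pairs of groups and in 2 interactions of cut and L-Kyn, at 3 h and 6 h. With edgeR's quasi-likelihood test and Benjamini-Hochberg adjustment over all genes, 0 of the 66 tests of the 6 members passed 0.05. At unadjusted p under 0.05 there were 10, from 0 to 2 per comparison, and the smallest adjusted p was 0.157. The tests share libraries, so these 10 are not independent and are not read as a result about the members. Counts of all genes at that threshold are given below for the comparisons in which edgeR called none. They are not given for the other comparisons, for DESeq2 or for the set-matched fit. Member counts at that threshold thus stand without a full share of all genes beside them. DESeq2 also called 0, with 8 at unadjusted p under 0.05, and the set-matched fit called 0, with 3. The replicates are not stated to come from separate seedling pools, so p-values rest on library-to-library spread that may be only technical.

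**Figure D3:**
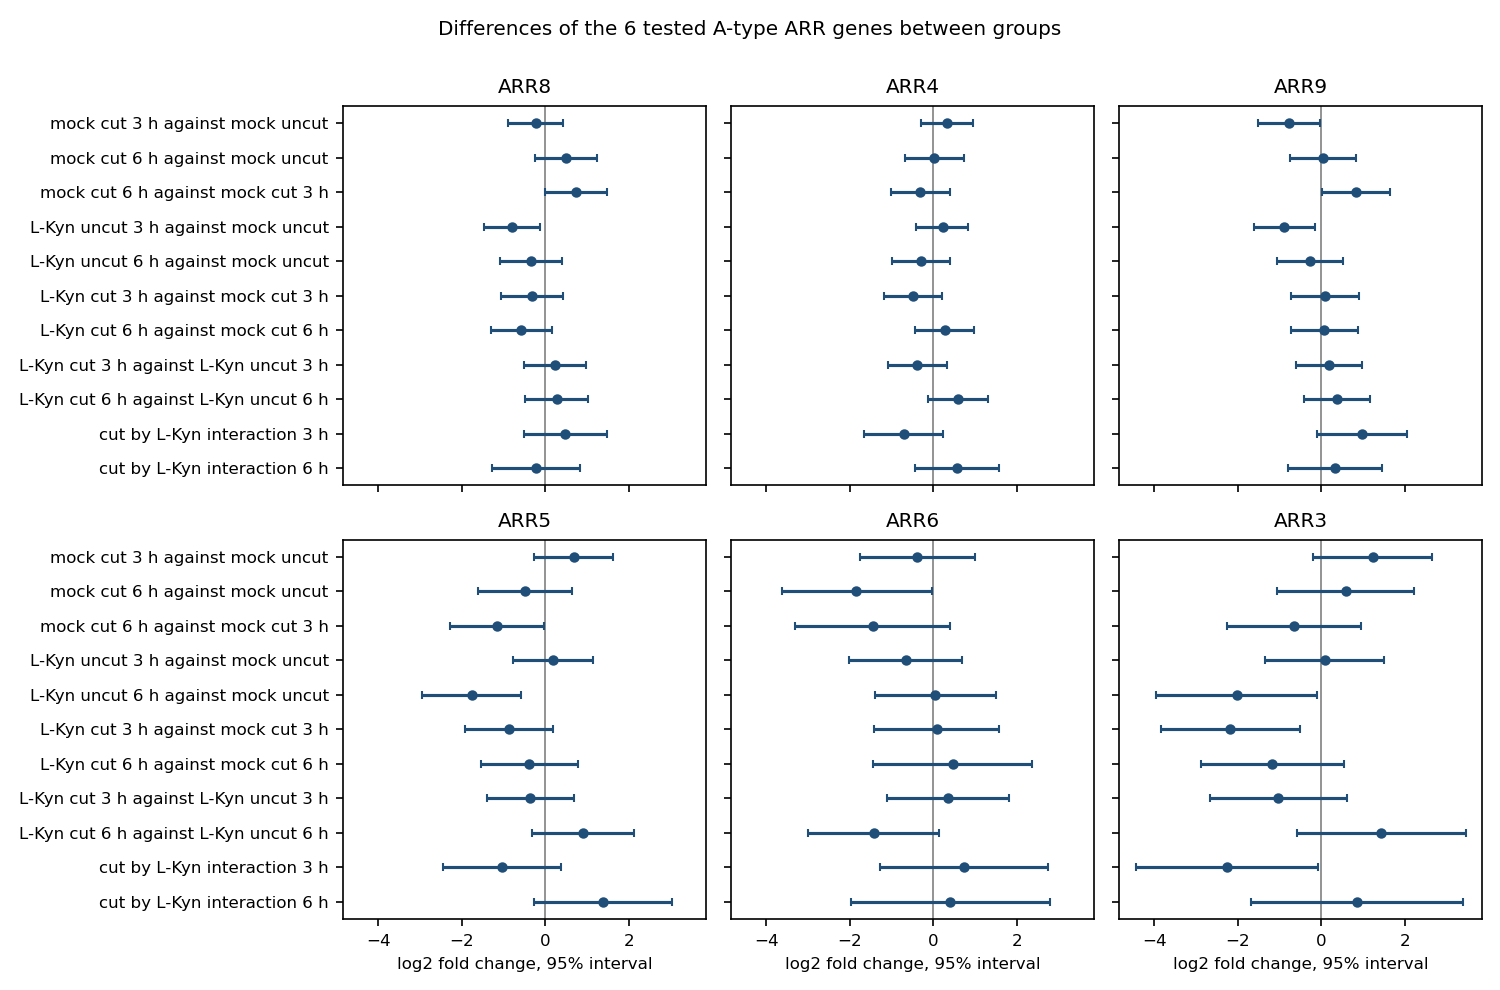
Log2 fold change (horizontal axis) of the 6 tested A-type ARR genes in 11 comparisons (rows), as points with 95% intervals from edgeR. Intervals of ARR8, ARR4 and ARR9 are narrower than those of ARR6 and ARR3, and no point passed an adjusted p of 0.05.

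The first comparison sets mock cut tips at 3 h against mock uncut tips, which carry no time in the labels. ARR8 had 84.6, 122 and 61.5 CPM in mock uncut and 63.1, 54.9 and 110 CPM in mock cut 3 h libraries. The groups overlapped, and the log2 fold change was -0.23 (95% interval -0.90 to 0.43, edgeR adjusted p = 0.672). With sets matched it was 0.30 (-0.58 to 1.18), the other direction. ARR4 had 40.9, 37.8 and 25.8 CPM before and 53.4, 38.6 and 39 CPM after the cut, a difference of 0.33 (-0.30 to 0.96).

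ARR5 had 9.7, 7.84 and 9.99 CPM in mock uncut and 25.8, 9.66 and 8.36 CPM in mock cut 3 h. The first cut library stood high, and the other 2 lay within the range of intact tips. The log2 difference was 0.68 (-0.27 to 1.62, edgeR adjusted p = 0.349), and -0.03 without mock cut 3 h replicate 1. ARR3 went from 3.94, 0.923 and 2.9 CPM to 8.75, 7.85 and 2.23 CPM, with a log2 difference of 1.23 (-0.19 to 2.65). ARR6 had a difference of -0.38 (-1.76 to 1.0), and of 0.48 (-1.42 to 2.38) with sets matched. The 9.89% of all tested genes called in this comparison included 0 of the 6 members, and 0 of 6 had groups without overlap, where 22.8% of all genes did.

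ARR9 had 36.1, 24.9 and 12.6 CPM in mock uncut and 12.9, 13.9 and 16.2 CPM in mock cut 3 h. The low intact value is replicate 3, the set B library, and lies with the cut libraries of its set. The log2 difference of -0.78 (-1.51 to -0.04, edgeR adjusted p = 0.157) was 0.18 (-0.73 to 1.09) in the set-matched fit. Without mock uncut replicate 3, the 1 set B library among intact mock tips, ARR9 was called lower at -1.10 (edgeR adjusted p = 0.0268). In that setting every intact library is of set A and every cut one of set B, and the set and the cut cannot be told apart. The set-matched fit called 11.3% of genes and 0 members in this comparison.

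ARR9 was the one member that separated the sets without overlap, at 19.9 to 36.1 CPM (median 25.1) in the 9 libraries of set A and 9.86 to 16.7 CPM (median 13.9) in the 9 of set B. Of all tested genes, 1.59% lay wholly higher in set A and 0.349% wholly lower. ARR8 ran from 65.1 to 128 CPM (median 84.6) in set A and from 37.2 to 110 CPM (median 59.4) in set B, so its sets overlapped. ARR5 showed the other order, at 1.72 to 9.7 CPM (median 5.28) in set A and 7.53 to 25.8 CPM (median 9.66) in set B. The set is also the time in all but the mock uncut libraries, so time and set cannot be told apart for the rest. The part of the green tissue transcripts in the ARR9 levels was not tested.

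At 6 h after the cut, ARR8 had 128 and 124 CPM, above the 61.5 to 122 CPM of mock uncut tips (log2 difference 0.50, -0.24 to 1.23, and 0.26 with sets matched). ARR6 had 1.23 and 1.35 CPM, from 2 and 3 counts, below the 2.58 to 6 CPM of mock uncut (difference -1.84, -3.63 to -0.04, edgeR adjusted p = 0.504). In the set-matched fit the ARR6 difference was -2.17 (-3.97 to -0.36, edgeR adjusted p = 0.257). These were the 2 of 6 members without overlap between groups, against 33.0% of all genes, and no gene was called by edgeR (0% of genes, with 1594 at unadjusted p under 0.05). DESeq2 called 46 genes and 0 members. In the set-matched fit, 0.549% of genes and 0 members were called.

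ARR4 at 6 h had 42.5 and 28.5 CPM (difference 0.02, -0.68 to 0.73), ARR9 27.7 and 23 CPM (0.04, -0.75 to 0.84), ARR5 4.93 and 8.13 CPM (-0.48, -1.60 to 0.65) and ARR3 4.93 and 3.16 CPM (0.58, -1.05 to 2.21). All 4 overlapped with intact tips, and with sets matched ARR4 was at -0.19 and ARR9 at -0.31. Their intervals leave room for differences in either direction, so equal levels are not shown.

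Between 3 h and 6 h after the cut, 4 of 6 members had groups without overlap, where 30.4% of all genes did. ARR8 and ARR9 were higher at 6 h, by log2 differences of 0.73 and 0.82 (0.01 to 1.64, edgeR adjusted p = 0.4). ARR5 was lower at 6 h, with a difference of -1.15 (-2.29 to -0.02, edgeR adjusted p = 0.394) that was -0.44 without mock cut 3 h replicate 1. ARR6 was also lower (-1.45, -3.30 to 0.39). Set A was compared with set B here, and in the set-matched fit ARR8 stood at -0.05 and ARR9 at -0.49, the other sign. The set term behind that change rests on mock uncut replicate 3 against replicates 1 and 2, so 1 library carries it. ARR5 was at -0.99 and ARR6 at -2.65 in that fit. Of all genes, 0.630% were called in the fit of all libraries and 0.886% in the set-matched fit, and 0 members in either.

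L-Kyn in intact tips was compared with mock uncut tips, which carry no time in the labels. In these comparisons L-Kyn and time cannot be told apart, and the block of auxin synthesis was not measured here. At 3 h, ARR8 had 56.8, 37.2 and 59.4 CPM, all below the lowest mock uncut value of 61.5 CPM, which is the set B library. Its log2 difference was -0.79 (-1.46 to -0.12, edgeR adjusted p = 0.464), against -0.25 (-1.10 to 0.61) when sets were matched. ARR9 had 16.7, 9.86 and 12.6 CPM, a difference of -0.89 (-1.61 to -0.16, edgeR adjusted p = 0.435) that was 0.09 (-0.81 to 0.99) in the set-matched fit. Without mock uncut replicate 3 it was called at -1.2 (edgeR adjusted p = 0.0419), again a comparison of set B with set A alone.

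ARR5 at 3 h of L-Kyn had 12.7, 11.4 and 7.53 CPM (difference 0.18, -0.77 to 1.13) and ARR4 39.6, 51.6 and 31.4 CPM (0.22, -0.41 to 0.84). ARR3 was at 0.08 (-1.34 to 1.51) and ARR6 at -0.66 (-2.01 to 0.69), and with sets matched at -0.01 and 0.23. In this comparison edgeR called 0% of all genes (1480 at unadjusted p under 0.05) and DESeq2 called 123, and 1 of 6 members had no overlap against 15.5% of genes. The set-matched fit called 0.130% of genes and 0 members.

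At 6 h of L-Kyn, ARR5 had 3.71 and 1.72 CPM, from 11 and 6 counts. Both lay below the 7.84 to 9.99 CPM of mock uncut tips. The log2 difference of -1.76 ± 0.57 (SE; 95% interval -2.95 to -0.57) was the member difference with the smallest unadjusted p (0.00577 by edgeR) and missed the adjusted threshold (0.406). The set-matched value was -1.69 (-2.95 to -0.44, edgeR adjusted p = 0.607), and leaving out single libraries gave -2.41 to -1.3. Against the mock uncut libraries of set A alone, at 9.7 and 7.84 CPM, both L-Kyn libraries, also of set A, were lower. Mean ARR5 was 9.18 CPM in mock uncut, 6.53 CPM in mock cut 6 h and 4.85 CPM in L-Kyn cut 6 h tips. The part of time in the ARR5 difference was not tested.

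ARR3 in the same tips had 0.675 and 0.575 CPM, 2 counts in each library, below the 0.923 to 3.94 CPM of mock uncut (difference -2.02, -3.95 to -0.10, edgeR adjusted p = 0.562). ARR8 had 65.1 and 75.6 CPM (-0.34, -1.09 to 0.40), ARR9 19.9 and 21 CPM (-0.26, -1.05 to 0.53), ARR4 32.4 and 24.1 CPM (-0.30, -1.0 to 0.40) and ARR6 6.75 and 3.16 CPM (0.05, -1.39 to 1.5, and -0.24 with sets matched). Of 6 members, 2 had no overlap, against 23.7% of genes. No gene was called by edgeR (0%, with 1393 at unadjusted p under 0.05; DESeq2 called 56), and in the set-matched fit 0.00591% of genes and 0 members were.

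L-Kyn in cut tips asks whether the levels after the wound differ with L-Kyn at the same hour. At 3 h, ARR3 had 1.89 and 0.826 CPM against 8.75, 7.85 and 2.23 CPM in mock cut tips. The groups did not overlap and the difference was -2.18 (-3.84 to -0.51, edgeR adjusted p = 0.496). Replicate 2 of the L-Kyn cut tips, with its root cap signal, is the lower of the pair, and the set-matched fit without it gave -1.70 (-3.67 to 0.27). ARR4, at 29.5 and 32.6 CPM, and ARR5, at 8.21 and 8.06 CPM, also lay below all mock cut libraries, with differences of -0.49 (-1.19 to 0.20) and -0.86 (-1.91 to 0.19). Without mock cut 3 h replicate 1, these were -0.32 for ARR4 and -0.15 for ARR5.

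ARR8 (72.4 and 49.4 CPM), ARR9 (16.2 and 14 CPM) and ARR6 (2.53 and 5.16 CPM) overlapped with mock cut tips, at differences of -0.32, 0.08 and 0.08, with ARR6 at -0.52 when sets were matched. Thus 3 of 6 members had no overlap, where 15.5% of all genes did. All genes together gave 0% called by edgeR (1282 at unadjusted p under 0.05, DESeq2 31) in the fit of all libraries, and 0% in the set-matched fit.

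At 6 h, ARR8 had 78, 101 and 76.7 CPM in L-Kyn cut tips, all below the 128 and 124 CPM of mock cut tips, a difference of -0.57 (-1.3 to 0.17, edgeR adjusted p = 0.745). ARR3 was also lower without overlap, at 1.67, 2.29 and 1.44 CPM against 4.93 and 3.16 CPM (-1.17, -2.89 to 0.55, and -0.77 without mock cut 6 h replicate 1). ARR4 had 51, 35.2 and 40.8 CPM (0.27), ARR5 6.22, 3.06 and 5.28 CPM (-0.38), ARR6 2.15, 2.29 and 0.959 CPM (0.46) and ARR9 25.1, 29.1 and 25.9 CPM (0.07), and each overlapped. All libraries here are of set A. The 2 of 6 without overlap stand beside 35.5% of all genes. The share called by edgeR was 0% (1263 genes at unadjusted p under 0.05, DESeq2 54) and 0.112% in the set-matched fit, with 0 members in both.

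Cut and intact tips were also compared under L-Kyn. At 3 h the 6 members differed by -1.03 (ARR3) to 0.36 (ARR6, -0.26 with sets matched) on the log2 scale. With replicate 2 of the L-Kyn cut tips counted as cut, all groups overlapped (16.5% of genes did not). Replicate 1 alone lay below all L-Kyn uncut 3 h libraries for ARR4 (29.5 CPM) and above them for ARR8 (72.4 CPM). For the other tested members it lay within their range. In the fit of all libraries edgeR called 0% of genes (492 at unadjusted p under 0.05, DESeq2 53). The set-matched fit, with 1 cut library, called 3.32% of genes and 0 members. At 6 h, 5 of 6 members had no overlap, where 39.3% of all genes did. ARR4 (0.59, -0.12 to 1.3), ARR3 (1.43, -0.58 to 3.45), ARR9 (0.38, -0.42 to 1.17) and ARR8 (0.27, -0.48 to 1.02) were higher in cut tips and ARR6 (-1.43, -2.99 to 0.13) was lower. The ARR6 difference was -0.73 without L-Kyn uncut 6 h replicate 1, the library with conflicting labels, and the ARR8 difference was 0.15 without L-Kyn cut 6 h replicate 2. The smallest adjusted p of the members was 0.336 (edgeR), for ARR6. Called genes made up 0.605% of all and 6.72% in the set-matched fit, and 0 members in both.

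The interaction asks whether the cut response differs with L-Kyn. At 3 h, ARR3 gave -2.26 (-4.44 to -0.08, edgeR adjusted p = 0.508) and ARR9 0.97 (-0.11 to 2.05), which in the set-matched fit were -1.69 and 0.09. ARR4 gave -0.71 (-1.65 to 0.23) and -1.21 in that fit, and ARR6 0.74 (-1.27 to 2.75) and -0.74. At 6 h the members ranged from -0.23 for ARR8 (0.02 with sets matched) to 1.38 for ARR5 (-0.28 to 3.04). Genes called by edgeR were 0% in both interactions and both fits, with 1568 and 419 genes at unadjusted p under 0.05 in the fit of all libraries, while DESeq2 called 13 and 0. Comparisons with mock uncut share those 3 libraries, so their values are not independent of each other.

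Other genes of the pathway were read from lists of 67 genes with known roles, of which 53 had counts and 33 were tested. In mock cut tips at 3 h, 3 were called higher and 2 lower, a share read against the 9.89% of all genes called, and the median log2 difference of the 33 was -0.09 (-0.02 over all genes). In the other 10 comparisons none of the 33 was called by edgeR in the fit of all libraries. Of all genes, edgeR called 0.630% in mock cut 6 h against mock cut 3 h. It called 0.605% in L-Kyn cut against uncut tips at 6 h and 0% in the rest. The absence of calls among the 33 is thus not read as a result about the pathway.

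Among genes for cytokinin synthesis, LOG7, which frees the active base, had 14.9, 20.3 and 8.05 CPM in mock uncut and 32.7, 23.5 and 45.7 CPM in mock cut 3 h tips. It was called higher at 1.25 (0.44 to 2.07, edgeR adjusted p = 0.0474). That call is at the edge: leaving out any 1 of the 6 libraries took the adjusted p to between 0.0502 and 0.128. IPT9, a tRNA isopentenyltransferase, had a difference of -1.35 (-2.34 to -0.37, edgeR adjusted p = 0.0701), and IPT2, of the same type, -0.84 (-1.73 to 0.04). Of 19 synthesis genes, 11 had counts and 4 were tested, the fourth being LOG8.

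Of the cytokinin oxidases, which break the hormone down, CKX3, CKX5 and CKX6 were tested. CKX3 had 6.35 ± 3.81 CPM in mock uncut (SD, n = 3), 1.24 ± 1.16 CPM with L-Kyn at 3 h (n = 3) and 0.6 ± 0.371 CPM at 6 h (n = 2). The differences of -2.08 (edgeR adjusted p = 0.353) and -3.29 (0.334) were not called. CKX5 and CKX6 ranged from -1.29 to 0.21 in the same comparisons.

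The receptors AHK2, AHK3 and AHK4 were not called in the fit of all libraries. AHK4 had 49.9 ± 18.2 CPM in L-Kyn cut tips at 6 h (n = 3) and 21.5 ± 1.12 CPM in L-Kyn uncut tips (n = 2), a difference of 1.2 (0.45 to 1.96, edgeR adjusted p = 0.0997). Both groups are of set A, and the library left out of the set-matched fit is in neither. That fit gave the same value and called it (edgeR adjusted p = 0.041). AHK3 gave 0.97 (edgeR adjusted p = 0.247) and AHK2 0.84 (0.578) there.

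Of the phosphotransfer proteins, AHP2, a positive carrier, had 15.2, 5.08 and 7.09 CPM in mock uncut and 31.8, 32 and 29 CPM in mock cut 3 h tips. It was called higher at 1.73 (0.94 to 2.53, edgeR adjusted p = 0.0116), and remained called when any single library was left out. AHP6, a pseudo-carrier that inhibits cytokinin signalling beside the root xylem, had 9.1, 5.08 and 4.83 CPM in mock uncut and 0, 0.604 and 0 CPM in mock cut 3 h. That is 56 counts against 1 count, a ratio per read on genes of 0.0269 (exact counting interval 0.000668 to 0.156). AHP6 was called lower (edgeR adjusted p = 0.016), not without mock cut 3 h replicate 1 (edgeR adjusted p = 0.0618). At 6 h it was at 1.85 and 3.16 CPM. Root cap and mitotic markers were low in the mock cut 3 h libraries. The 6 vascular markers, AHP6 among them, summed to 48.5 to 84.5 CPM there against 71.5 to 117 CPM in mock uncut. Stem cell niche markers summed to 82 to 218 CPM against 98.8 to 147 CPM. Xylem markers were at 5.43 to 27.6 CPM against 2.9 to 10.3 CPM. Epidermis and root hair markers were at 7.81 to 24.9 CPM against 1.93 to 21.7 CPM. The part of these cell types in the AHP2 and AHP6 levels was not tested. In bulk tips, fewer cells of a type and less RNA per cell cannot be told apart.

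B-type ARRs, which act on the A-type promoters, gave 0 calls by edgeR among 5 tested genes in any of the 11 comparisons. Of all genes, edgeR called 9.89% in mock cut 3 h against mock uncut and at most 0.630% in any other comparison. So 0 of 5 is not read as a result, and equal levels are not shown. In mock cut 3 h tips ARR1 differed by 0.09 (-0.55 to 0.73), ARR10 by -0.04 (-0.79 to 0.72) and ARR12 by 0.10 (-0.71 to 0.92). ARR1 ran at 38 ± 4.81 CPM in mock uncut (SD, n = 3), ARR10 at 29 ± 10.7 CPM and ARR12 at 21.9 ± 1.38 CPM.

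Of other outputs, CRF3, a cytokinin response factor of the AP2 class, was called lower at 3 h after the cut, from 37.9, 82.1 and 52.2 to 18.4, 19.3 and 16.2 CPM (-1.67, -2.57 to -0.77, edgeR adjusted p = 0.024). EXPA1, an expansin that loosens walls, was called higher, from 36.7, 20.3 and 10.6 to 62.6, 53.7 and 68 CPM (1.44, 0.53 to 2.36, edgeR adjusted p = 0.0431). The calls of CRF3 and EXPA1 were each lost without several single libraries, at adjusted p up to 0.0919 and 0.115. With sets matched, EXPA1 was at 2.52 (edgeR adjusted p = 0.00368) and LOG7 at 2.07 (0.0121), larger than with all libraries, and CRF3 was not called (0.0576). With only the groups compared in the fit, all 5 of these pathway calls were lost (edgeR adjusted p of 0.0604 to 0.193).

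**Figure D4:**
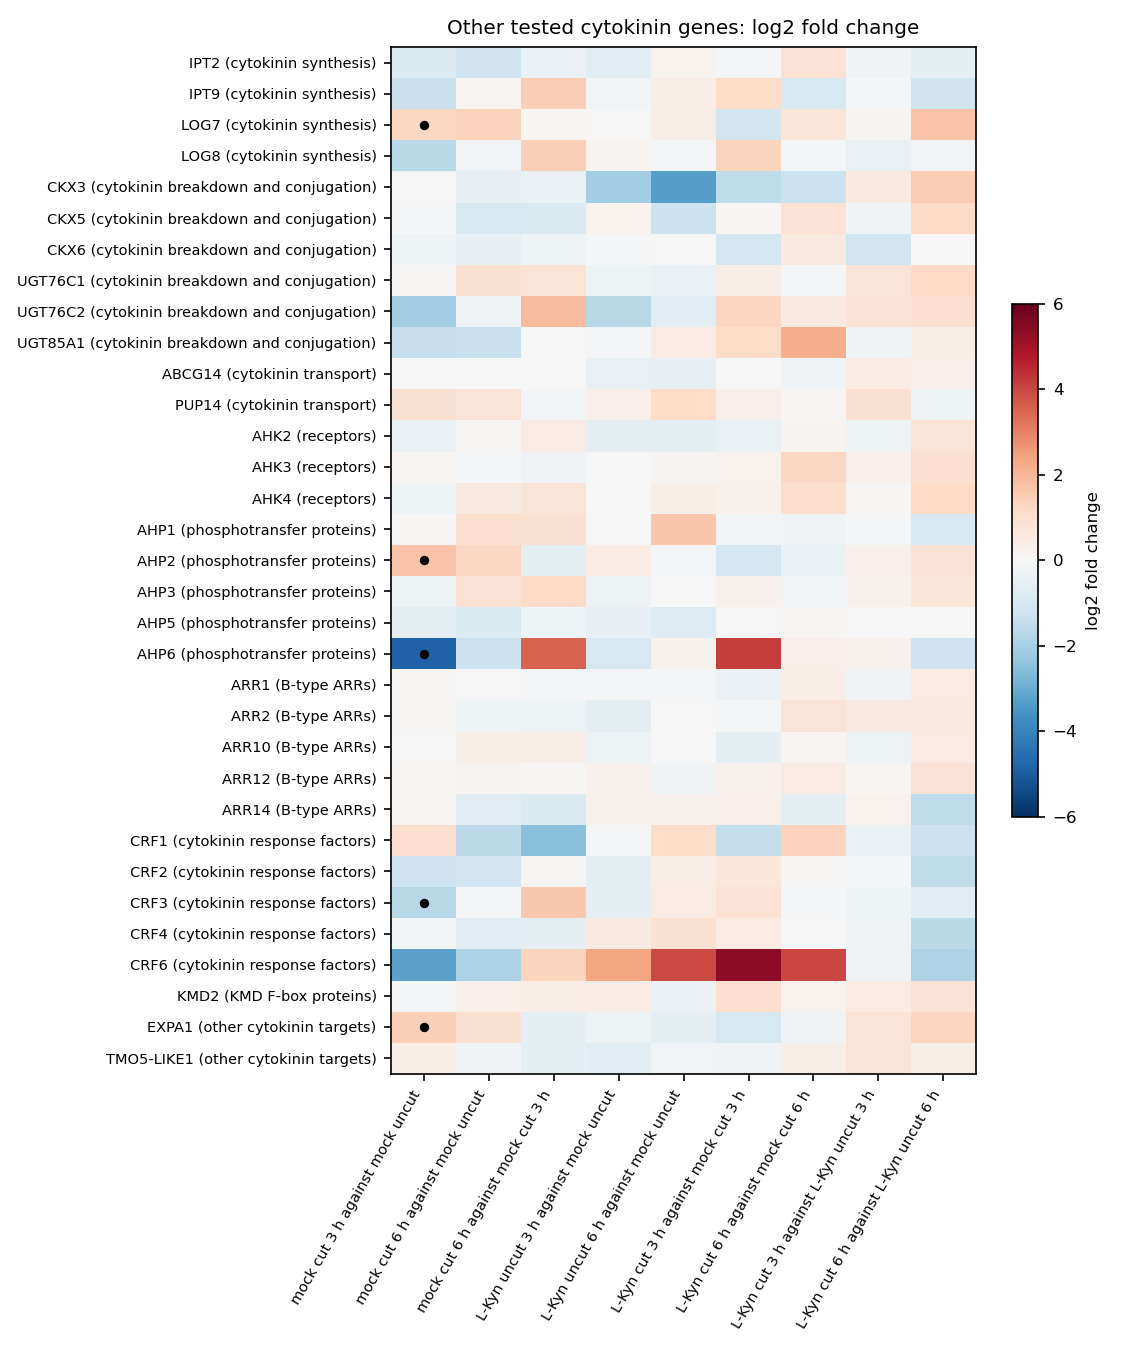
Log2 fold change (colour) of 33 other tested cytokinin genes (rows, with their role) in 9 pairs of groups (columns), from edgeR on all 18 libraries. Dots mark adjusted p under 0.05, all 5 of them in mock cut 3 h against mock uncut (LOG7, AHP2 and EXPA1 higher, AHP6 and CRF3 lower).

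In the set-matched fit, mock cut 3 h tips had 4 pathway genes called higher and 3 lower of 35 tested, where 11.3% of all genes were called. L-Kyn cut against uncut tips at 6 h had 3 higher and 2 lower, where 6.72% of all genes were called. The calls at 6 h were LOG7 (1.70, edgeR adjusted p = 0.00509), AHK4 and EXPA1 (1.28, 0.0366), and CRF2 (-1.54, 0.03) and CRF4 (-1.60, 0.0439). LOG7 had 49.5, 66.5 and 69.5 CPM in these cut tips against 22.6 and 15.5 CPM in uncut ones. All these libraries are of set A, and of the uncut pair, replicate 1 has conflicting labels. Genes called in this comparison were 99 in the fit of all libraries, 343 with the set term and 1138 in the set-matched fit. Without the set term, leaving out L-Kyn cut 6 h replicate 2 or 3, or L-Kyn uncut 6 h replicate 2, gave 0 called genes.

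Across the 18 libraries, log2 CPM of ARR8 and ARR9 had a Pearson r of 0.74, and 0.59 after the group means were taken out. After that step the other 14 pairs of members lay between -0.45 (ARR5 and ARR8) and 0.55 (ARR6 and ARR9). It leaves the set difference within mock uncut in place. Over the libraries as they stand, the 14 pairs lay between -0.50 (ARR5 and ARR9) and 0.56 (ARR3 and ARR5). By the same measure, the genes most like ARR8 were PIN1AT, a parvulin-type prolyl isomerase (r = 0.906), SHM2, a serine hydroxymethyltransferase (0.902), and the protein kinase gene PK3 (0.897). Most like ARR9 were AT1G63520 (0.923), AT5G01015 (0.906) and AT5G18880 (0.906). ARR4 had AT3G10080 (0.799), AT5G04310 (0.736) and AT3G57420 (0.736). These libraries share groups and sets, so the values are descriptions over 18 points and carry no test.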

How the data were processed

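The values are raw read counts for each locus, as the authors deposited them in a single table. Per the submitters' processing notes, the tools were Bowtie2, HTSeq and DESeq2 (versions not given in the sources used here) with TAIR10 as the build. Libraries were made with a 3′ kit, per the labels' protocols, so reads lie at transcript ends. They are counted here as reads, not as molecules. The floor of 3 counts and the exact counting interval of AHP6 cover counting error only. Intervals from edgeR also take in the spread between libraries. The 3 lines that name no gene (low quality 46.4% to 83.2% of a library's total, no feature 3.75% to 15.1%, ambiguous 0.0918% to 0.329%) were left out.

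Counts were fitted with edgeR 4.0.16 (R 4.3.3) by quasi-likelihood on all 18 libraries, with 1 mean per group, TMM factors, edgeR's filter by group (16354 genes, 16934 in the set-matched fit) and Benjamini-Hochberg adjustment at 0.05 within each of 11 comparisons. Intervals are 95%. The steps were tested on simulated counts. Alternatives were RLE factors, DESeq2 1.42.0, no filter, a mean of at least 5 CPM, the replicate number as a block, only the groups under comparison, the set term, the set-matched fit, a single set, and each library left out.

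All 10 members are named whatever their p. Of the other lists, AHK2 to AHK4, AHP6, ARR1, ARR10, ARR12 and tested CKX and IPT genes are named, with up to 6 called genes per comparison by smallest adjusted p. Other genes were named after their values were seen. For members with at least 10 CPM, the 3 genes with the highest Pearson r of log2 CPM (prior count 2) are named. Members and lists were chosen with earlier results of these data known.

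Promoters, gene overlaps and coding lengths came from RefSeq's TAIR10.1 by locus tag, with no coordinates taken from the deposited counts. Matching used BLAST 2.17.0 and Biopython 1.88. Replicate pairs differed by more than sampling noise in each group. Same-numbered libraries of different groups did not deviate together, so replicate numbers were not taken as pairs.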

Additional observations from a re-analysis of the deposited data

How the results depend on the processing

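Of 960 member differences computed under other settings, 2 were called, both for ARR9 without mock uncut replicate 3, and 70 had the other sign, none of those called. Leaving out single libraries, the number of members called ranged from 0 to 1 in mock cut 3 h against mock uncut and from 0 to 1 in L-Kyn uncut 3 h against mock uncut, and was 0 in the other comparisons. In that setting 2467 and 452 of 15724 genes were called in those comparisons. RLE factors, DESeq2, no filter, the stricter filter, only the groups compared, the set term, the set-matched fit and a single set each called 0 members, with a smallest adjusted p of 0.124. With the replicate block, 0 members were called in the 11 comparisons, at a smallest adjusted p of 0.212. Same-numbered libraries had a mean correlation of deviations of 0.01 (-0.25 to 0.32, 48 pairs), so the numbers name samples only. LOG7 lost its call under the block (edgeR adjusted p = 0.0641) and without a filter (0.0505). AHP6 and CRF3 lost theirs with the set term (edgeR adjusted p = 0.0523 and 0.0872), and CRF3 in the set-matched fit (0.0576). All 5 pathway calls were lost within set B (edgeR adjusted p of 0.121 to 0.16), where mock uncut has 1 library. AAGATNTT, searched in place of the core letters, was in 5 members where the cores were in 10. ARR7, ARR15 and ARR16 had too few counts to be tested, and depth itself was not varied.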

Other observations

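CRF6, a cytokinin response factor known in Arabidopsis leaves for responses to stress and senescence, was picked after its values were seen. It had 1.82, 3.23 and 1.29 CPM in mock uncut tips, 0, 0.604 and 0 CPM in mock cut tips at 3 h, and 0 and 0.903 CPM at 6 h. With L-Kyn, intact tips had 0.566, 22.7 and 11.3 CPM at 3 h and 21.9 and 42 CPM at 6 h, and cut tips 0.631 and 17.8 CPM at 3 h and 11.5, 9.94 and 5.28 CPM at 6 h. All 5 L-Kyn libraries at 6 h thus lay above every mock library, while at 3 h the L-Kyn libraries were split, 1 low value in each group. Of all tested genes, 23.7% had no overlap between L-Kyn uncut 6 h and mock uncut tips. Between L-Kyn cut 6 h and mock cut 6 h tips, 35.5% had none. The share against all mock libraries together was not computed. L-Kyn libraries at 6 h are all of set A, while mock libraries are of both sets. The log2 difference of L-Kyn uncut 6 h tips from mock uncut was 3.94 (95% interval 1.84 to 6.04, edgeR adjusted p = 0.225), and it was not called.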
